A study of Mus musculus with 16 samples.

Results

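Sestrins and REDD proteins are stress-induced brakes on mTORC1, the kinase complex that couples growth to nutrients and energy. The 5 genes described here are Sesn1, Sesn2 and Sesn3 (the sestrins), Ddit4 (REDD1) and Ddit4l (REDD2). They were chosen by name from the array annotation, with the probe of highest mean log2 signal over the arrays to stand for each gene, and make up 5 of 34781 gene names on the array and 5 of 25397 genes tested. Each of the 5 had 1 probe on 1 spot, so brightness chose nothing, and all 5 were tested.

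Cy3-labelled RNA of primary alveolar type II cells, which make surfactant, from C57BL/6 mice was hybridised to 16 one-colour Agilent arrays. The 4 groups, of 4 arrays each, were hyperoxia (85% O2) and normoxia (21% O2) at 6 h and hyperoxia and normoxia at 24 h, and the labels name no other agent or allele. Nothing in the sources used here gives the animals' age or says whether replicates came from separate mice or cultures, so p-values measure the spread between these samples, which may be technical. The 6 h arrays shared 1 slide and the 24 h arrays a second slide, so time and slide cannot be told apart. On each slide hyperoxia took the second row and normoxia the first, so oxygen and slide row cannot be told apart either.

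Sestrins bind GATOR2, a complex that opposes GATOR1, the GTPase-activating complex of the Rag GTPases that bring mTORC1 to the lysosome. Sesn1 and Sesn2 are also leucine sensors, and sestrins have been linked to the recycling of overoxidised peroxiredoxins. REDD1 acts through the TSC complex, which switches off Rheb, the direct activator of mTORC1. Sesn1 is known as a p53 target, Sesn2 as a target of p53, ATF4 and NRF2, and Sesn3 as a FOXO target. Ddit4 is known for its induction by low oxygen, glucocorticoids and ATF4, and in mouse lung for its part in injury by cigarette smoke.

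The 250 bases before the transcription start are shown for the member with the largest hyperoxia effect, for the sestrin with the smallest spread between replicates and for the gene known for its response to low oxygen. The sequences are from RefSeq on GRCm38.p6, read 5′ to 3′ on the gene's strand, and capitals mark the matches to the searched motifs.
Ddit4l, chr3:137623422-137623671, plus strand: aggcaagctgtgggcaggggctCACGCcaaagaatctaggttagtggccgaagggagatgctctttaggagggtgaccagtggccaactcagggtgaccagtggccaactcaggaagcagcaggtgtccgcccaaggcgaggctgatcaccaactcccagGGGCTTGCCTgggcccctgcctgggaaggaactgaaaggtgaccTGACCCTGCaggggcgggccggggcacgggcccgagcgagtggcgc
Sesn2, chr4:132510457-132510706, minus strand: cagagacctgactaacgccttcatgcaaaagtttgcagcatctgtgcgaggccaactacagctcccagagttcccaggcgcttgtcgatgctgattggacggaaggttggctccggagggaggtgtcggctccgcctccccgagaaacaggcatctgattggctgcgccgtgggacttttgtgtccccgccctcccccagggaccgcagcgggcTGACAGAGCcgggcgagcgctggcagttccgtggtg
Ddit4, chr10:59951771-59952020, minus strand: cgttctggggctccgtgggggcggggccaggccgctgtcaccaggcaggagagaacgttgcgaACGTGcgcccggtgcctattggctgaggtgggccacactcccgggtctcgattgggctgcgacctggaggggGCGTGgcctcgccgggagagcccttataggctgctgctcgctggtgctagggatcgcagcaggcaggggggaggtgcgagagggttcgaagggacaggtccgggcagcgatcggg

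The motifs were searched on both strands. They were the ATF4 composite TGATGNAAT, the antioxidant response element TGACNNNGC, the hypoxia response cores ACGTG and GCGTG, the FOXO motif GTAAACA, the glucocorticoid receptor motif and the p53 motif, a single decamer of the p53 response element. Among 32851 promoters of this length, TGACNNNGC stood in 10.2%, ACGTG in 16.6%, GCGTG in 28.2% and the p53 decamer in 7.13%. GTAAACA stood in 3.17%, TGATGNAAT in 0.816% and the glucocorticoid receptor motif in 0.387%. The Ddit4l promoter held the p53 decamer 90 bases before the start, TGACNNNGC 46 bases before it and GCGTG, as CACGC, 228 bases before it. The Sesn2 promoter held TGACNNNGC 36 bases before the start and no other of these motifs. The Ddit4 promoter held ACGTG 187 and GCGTG 115 bases before the start. One of the 2 Sesn1 promoters held the p53 decamer, 173 bases before the start, and GCGTG 147 and 55 bases before it. The other Sesn1 promoter and the Sesn3 promoter held none. All 6 promoters were richer in G and C, at 59.6% to 71.2%, than the median promoter, at 52.4%.

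Levels are log2 processed signals less the 75th percentile of the array, so 0 is a signal equal to that percentile, and each probe's level is compared with itself only. All 80 values of the 5 genes were well above background and none was saturated. The probes are 60 bases long and lie, on mm9, at chr10:41628012-41628071 for Sesn1, chr4:132048858-132048917 for Sesn2, chr9:14130452-14130511 for Sesn3, chr10:59412486-59412545 for Ddit4 and chr3:137290927-137290986 for Ddit4l. RefSeq lists 2 Sesn1 transcripts and the array annotation names the Sesn1 probe by 1 transcript, so whether it measures both is not known here. The share of probes well above background ran from 53.6% to 69.0% over the arrays. Unscaled signal at the 75th percentile was 899 to 992 in hyperoxia and 973 to 1021 in normoxia at 6 h, and 685 to 801 in hyperoxia and 556 to 747 in normoxia at 24 h. Of 12 type II cell markers 11 were detected in at least 1 group, and Slc34a2, the phosphate transporter used as a type II marker, was well above background on 0 arrays.

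**Figure D1:**
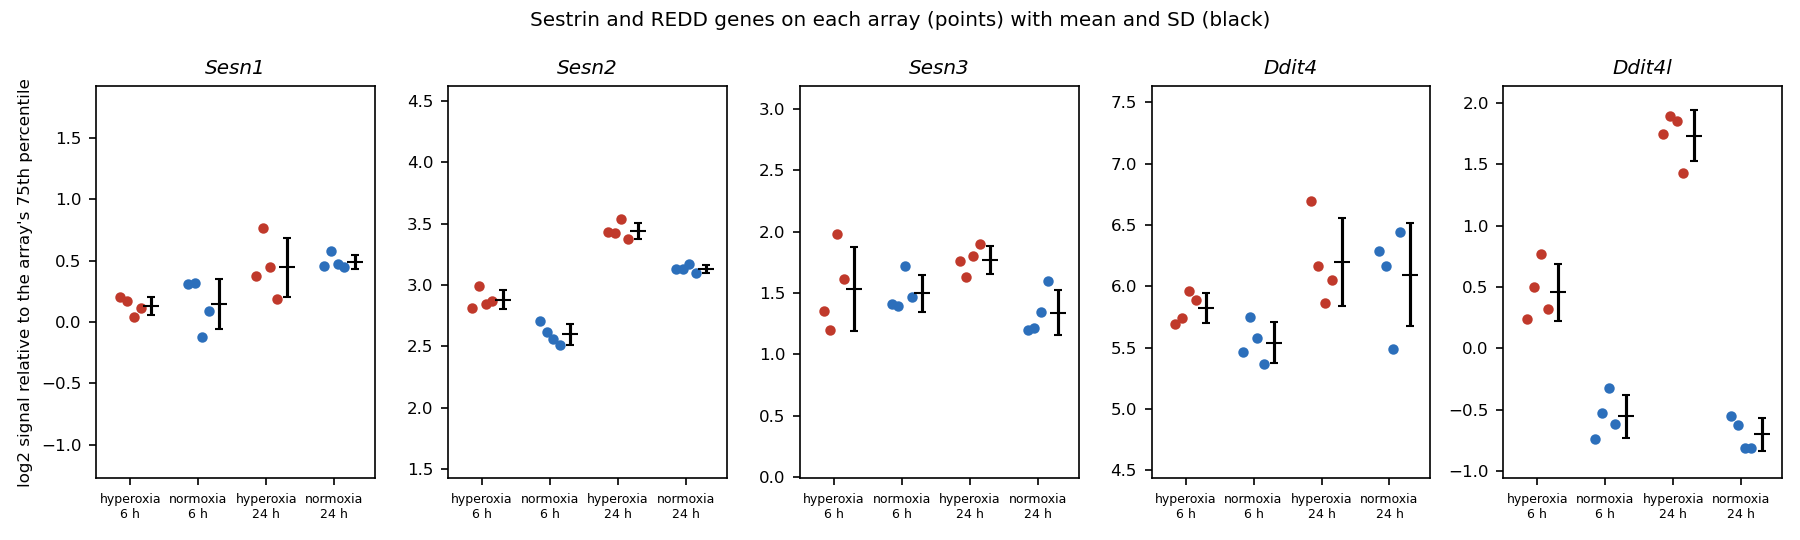
Log2 signal of each gene on each of the 16 arrays (points, hyperoxia in red and normoxia in blue) with the group mean and SD in black. Panels span the same number of log2 units but start at different levels. Ddit4l and Sesn2 stand higher in hyperoxia than in normoxia without overlap at both times, and Sesn3 at 24 h.

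Hyperoxia was compared with normoxia at each time to see which of these genes respond to raised oxygen. At 24 h the transcripts of Ddit4l, Sesn2 and Sesn3 were higher in hyperoxia, by 5.41-fold, 1.24-fold and 1.35-fold, while those of Sesn1 and Ddit4 did not pass the test. At 6 h Ddit4l alone passed it, at 2.02-fold. A gene was called where its limma adjusted p, over all 25397 genes, was under 0.05. At 6 h 1 of the 5 genes was called, against 0.327% of all genes (60 higher and 23 lower). At 24 h 3 of 5 were called, all higher, against 28.3% of all genes in either direction and 15.5% higher. The median log2 fold change of the 5 was 0.28 at 6 h and 0.31 at 24 h, against 0.01 over all tested genes at each time. The 5 genes were chosen with earlier results of these data known, so these shares and medians are descriptions. Without scaling between arrays, 6381 genes were called higher and 1214 lower at 24 h, in place of 3943 and 3251.

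Among the sestrins, Sesn2 had the least spread. At 6 h its log2 level was 2.81, 2.99, 2.85 and 2.87 on the hyperoxia arrays and 2.71, 2.62, 2.56 and 2.51 on the normoxia arrays. The lowest hyperoxia array stood above the highest normoxia array, as it did for 2.31% of all genes, but the difference of 0.28 ± 0.06 (SE) missed the threshold, with an adjusted p of 0.0781 and a 95% interval of 0.15 to 0.41. At 24 h the 4 hyperoxia arrays read 3.43, 3.42, 3.53 and 3.37 and the 4 normoxia arrays 3.13, 3.13, 3.17 and 3.09. Again the groups did not overlap, as for 17.9% of all genes with hyperoxia higher. Sesn2 rose by 0.31 ± 0.06 (SE; 95% interval 0.18 to 0.44, adjusted p = 0.00145). The effects at the 2 times differed by 0.03 (95% interval -0.16 to 0.21, adjusted p = 0.888).

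Sesn3, which encodes the third sestrin, had log2 levels of 1.76, 1.63, 1.80 and 1.90 in hyperoxia and 1.20, 1.22, 1.34 and 1.60 in normoxia at 24 h. Every hyperoxia array was above every normoxia array, with a gap of under 0.05 between the nearest arrays. Sesn3 rose by 0.43 ± 0.15 (SE; 95% interval 0.12 to 0.74, adjusted p = 0.0387). This call was lost on leaving out any one 24 h array other than normoxia replicate 4 or hyperoxia replicate 2. The 8 such fits gave 0.39 to 0.52, with adjusted p of 0.0218 to 0.101. It was also lost with scaling to the median (0.44, adjusted p = 0.0502) and with no filter on dim probes (0.43, adjusted p = 0.0603). At 6 h the levels were 1.35, 1.20, 1.98 and 1.61 in hyperoxia and 1.41, 1.39, 1.72 and 1.47 in normoxia. Those groups overlapped, and the difference was 0.04 (95% interval -0.27 to 0.35, adjusted p = 0.996). The change of the effect with time, 0.39, did not pass the test (95% interval -0.05 to 0.84, adjusted p = 0.257). Without hyperoxia 6 h replicate 3, the array with the highest 6 h level, it was 0.54 with an adjusted p of 0.0361.

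Sesn1 levels were 0.21, 0.17, 0.04 and 0.12 in hyperoxia and 0.31, 0.31, -0.12 and 0.09 in normoxia at 6 h. At 24 h they were 0.37, 0.77, 0.45 and 0.19 in hyperoxia and 0.46, 0.58, 0.47 and 0.45 in normoxia. The groups overlapped at both times. The differences were -0.02 at 6 h (95% interval -0.26 to 0.23, adjusted p = 0.999) and -0.04 at 24 h (95% interval -0.29 to 0.20, adjusted p = 0.830).

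Ddit4l, which encodes a relative of REDD1 that also restrains mTOR signalling, had log2 levels of 0.24, 0.50, 0.77 and 0.32 in hyperoxia and -0.74, -0.53, -0.33 and -0.62 in normoxia at 6 h. All 4 hyperoxia arrays were above the 75th percentile of their array and all 4 normoxia arrays below it. Ddit4l rose by 1.01 ± 0.13 (SE; 95% interval 0.73 to 1.29, adjusted p = 0.00219) and was 21st of all genes in order of p. By 24 h the levels were 1.75, 1.89, 1.85 and 1.43 in hyperoxia and -0.56, -0.62, -0.81 and -0.82 in normoxia. The nearest arrays of the groups were then further apart than at 6 h, and Ddit4l rose by 2.44 ± 0.13 (SE; 95% interval 2.15 to 2.72, adjusted p = 6.09e-09), 95th of all genes in order of p. The effect at 24 h exceeded that at 6 h by 1.42 ± 0.19 (SE; 95% interval 1.03 to 1.82, adjusted p = 0.000157). This test of the difference was passed by 12.3% of all genes in either direction and by 1 of the 5 genes here.

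Ddit4 gave levels of 5.70, 5.75, 5.96 and 5.89 in hyperoxia and 5.46, 5.75, 5.58 and 5.37 in normoxia at 6 h. At 24 h the arrays read 6.70, 6.17, 5.86 and 6.05 in hyperoxia and 6.29, 6.16, 5.49 and 6.44 in normoxia. The groups overlapped at both times, and hyperoxia replicate 1 and normoxia replicate 3 lay furthest out at 24 h. The differences were 0.28 at 6 h (95% interval -0.14 to 0.70, adjusted p = 0.860) and 0.10 at 24 h (95% interval -0.32 to 0.52, adjusted p = 0.757). Leaving out hyperoxia 24 h replicate 1 turned the 24 h difference to -0.07 and leaving out normoxia 24 h replicate 3 to -0.10.

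**Figure D2:**
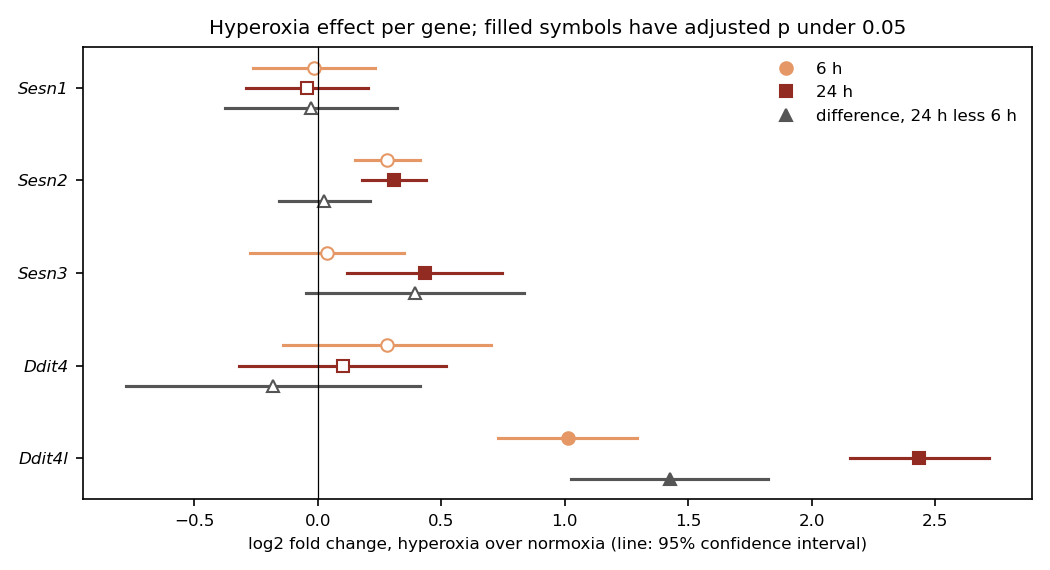
Log2 fold change of hyperoxia over normoxia for each gene at 6 h (circles) and 24 h (squares), and the 24 h effect less the 6 h effect (triangles), with 95% confidence intervals. Filled symbols passed the test. The Ddit4l intervals lie above 0 throughout, Sesn2 has nearly the same effect at both times (0.28 and 0.31), and the Sesn1 and Ddit4 intervals include 0.

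In bulk RNA, fewer cells of a type and less RNA per cell cannot be told apart. Of 64 cell-type markers tested, 11 were called at 24 h, which is 17.2% against 28.3% of all genes, and only the type II list, at 5 of 11, had a larger share than all genes. The summed level of the 12 type II markers, in multiples of the array's 75th percentile, was 29.9 to 37.0 in hyperoxia and 40.3 to 45.8 in normoxia at 24 h, and 56.7 to 81.1 in hyperoxia and 60.6 to 74.6 in normoxia at 6 h. Such sums are weighted to the brightest probes. Lamp3 (3.30 in hyperoxia and 4.34 in normoxia), Etv5 (2.58 and 3.37), Sftpb (-1.20 and -0.24) and Lpcat1 (-0.76 and -0.48) were called lower at 24 h. Abca3 was called higher, by 0.68, while Sftpc (1.84 and 1.39) and Sftpd (0.48 and 0.03) had higher means in hyperoxia without being called. For 10 fibroblast and smooth muscle markers the sum was 1577 to 1680 in hyperoxia and 1706 to 1951 in normoxia at 24 h, and 926 to 1214 in hyperoxia and 981 to 1183 in normoxia at 6 h. Its bright members Col1a2 (8.59 and 8.90) and Acta2 (8.62 and 8.71) had lower means in hyperoxia at 24 h, and Lum (0.32 and -0.21) and Pdgfra (1.51 and 0.95) higher ones. None of these was called, and the only member called was Cnn1, which was lower (6.77 and 7.22). The 9 macrophage markers summed to 71.3 to 79.1 in hyperoxia and 57.9 to 73.5 in normoxia at 24 h, and to 28.7 to 40.0 in hyperoxia and 29.0 to 33.7 in normoxia at 6 h. At 24 h type II markers had 1 member higher and 4 lower of 11 tested, and fibroblast and smooth muscle markers 0 higher and 1 lower of 10. Macrophage markers had 1 higher and 0 lower of 9, neutrophil markers 1 and 0 of 6, and club cell markers 1 and 0 of 4. Type I markers had 0 higher and 1 lower of 7, endothelial markers 0 and 1 of 6, and lymphocyte (7 tested) and ciliated cell markers (4 tested) 0 in either direction. Their part in the rises of Ddit4l, Sesn2 and Sesn3 was not tested.

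Level order over the 4 groups differed between the genes. Orders across the times also compare the 2 slides and rest on how the slides were scaled. Ddit4l was highest in hyperoxia at 24 h (1.73 ± 0.21, SD, n = 4 here and below), then in hyperoxia at 6 h (0.46 ± 0.23), normoxia at 6 h (-0.55 ± 0.18) and normoxia at 24 h (-0.70 ± 0.13). Sesn2 was highest in hyperoxia at 24 h (3.44 ± 0.07), then in normoxia at 24 h (3.13 ± 0.03), hyperoxia at 6 h (2.88 ± 0.08) and normoxia at 6 h (2.60 ± 0.09). Before scaling, Sesn2 signal was 5010 to 6551 in normoxia at 24 h and 6468 to 7884 in hyperoxia at 6 h. Those groups then overlapped, and that step of the order did not hold. For Sesn3 the order was hyperoxia at 24 h (1.77 ± 0.11), hyperoxia at 6 h (1.53 ± 0.34), normoxia at 6 h (1.50 ± 0.15) and normoxia at 24 h (1.34 ± 0.18), and all neighbours overlapped. Ddit4 ran from hyperoxia at 24 h (6.20 ± 0.36) through normoxia at 24 h (6.09 ± 0.42) and hyperoxia at 6 h (5.82 ± 0.12) to normoxia at 6 h (5.54 ± 0.17), again with overlap between all neighbours. Sesn1 ran from normoxia at 24 h (0.49 ± 0.06) through hyperoxia at 24 h (0.45 ± 0.24) and normoxia at 6 h (0.15 ± 0.21) to hyperoxia at 6 h (0.13 ± 0.07), and neighbours overlapped throughout.

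Time in culture was compared within each oxygen level, across the 2 slides. In hyperoxia Ddit4l was 1.28 higher at 24 h than at 6 h (adjusted p = 3.07e-06), Sesn2 0.56 higher (adjusted p = 4.96e-06) and Sesn1 0.31 higher (adjusted p = 0.0346). The rises of Sesn3 (0.24, adjusted p = 0.189) and Ddit4 (0.37, adjusted p = 0.126) missed the threshold. In normoxia Sesn2 was 0.53 higher at 24 h (adjusted p = 2.52e-05), Ddit4 0.55 higher (adjusted p = 0.0340) and Sesn1 0.34 higher (adjusted p = 0.0277), while Sesn3 stood at -0.16 (adjusted p = 0.397) and Ddit4l at -0.15 (adjusted p = 0.377). Each comparison thus called 3 of the 5 genes, all higher, against 52.3% of all genes in hyperoxia (25% higher) and 44.1% in normoxia (20.6% higher). On leaving out single arrays the Sesn1 call was lost in 5 of 8 fits in hyperoxia and in 3 of 8 in normoxia, and the Ddit4 call in normoxia in 6 of 8. Cell-type markers also differed between the times, with 42 of 64 called in hyperoxia (65.6%) and 40 of 64 in normoxia (62.5%). Type II markers were 0 higher and 7 lower of 11 in hyperoxia and 2 and 6 in normoxia, and fibroblast and smooth muscle markers 7 and 0 of 10 in hyperoxia and 6 and 0 in normoxia. Club cell markers were 1 higher and 3 lower of 4, and ciliated cell markers 0 and 4 of 4, in hyperoxia and in normoxia alike. Their part in the time comparisons was not tested. These 2 comparisons rest on how the slides were scaled. Without scaling, the median of all genes moved by -0.34 in hyperoxia and -0.60 in normoxia, and Sesn1, Sesn2 and Ddit4 turned to -0.26, -0.064 and -0.044 in normoxia, where 423 genes were called higher and 19705 lower in place of 5237 and 5974. In hyperoxia Sesn1 turned to -0.024 without scaling, and Sesn2 lost its call at 0.22 (adjusted p = 0.0626). Scaling to the median moved all genes by 0.22 in hyperoxia and 0.21 in normoxia, with 10681 genes higher and 4199 lower in hyperoxia, in place of 6348 and 6946, and 10102 higher and 3405 lower in normoxia. The rise of Ddit4l in hyperoxia stayed past the threshold under all 8 alternatives, at 0.94 to 1.49.

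The mTORC1 pathway around the 5 genes was read from 9 lists of other genes. Of 92 genes 90 were tested: 1 had no probe under its name (Kics2) and 1 was not well above background (Rragb). At 24 h 21 were higher in hyperoxia and 5 lower, which is 28.9% and close to the 28.3% of all genes, with a median log2 fold change of 0.06 against 0.01. At 6 h 2 were higher and 0 lower, 2.22% against 0.327%. The change of the effect with time passed for 13, or 14.4% against 12.3%. Without scaling between arrays, which moved all genes by 0.20 at 24 h, 30 were higher and 3 lower. Probes of 8 of the 35 genes with more than 1 probe differed in the call at 24 h. Genes were counted by the brightest probe, so a list with 0 lower can hold another probe called lower, as for Depdc5 and Akt2.

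**Figure D3:**
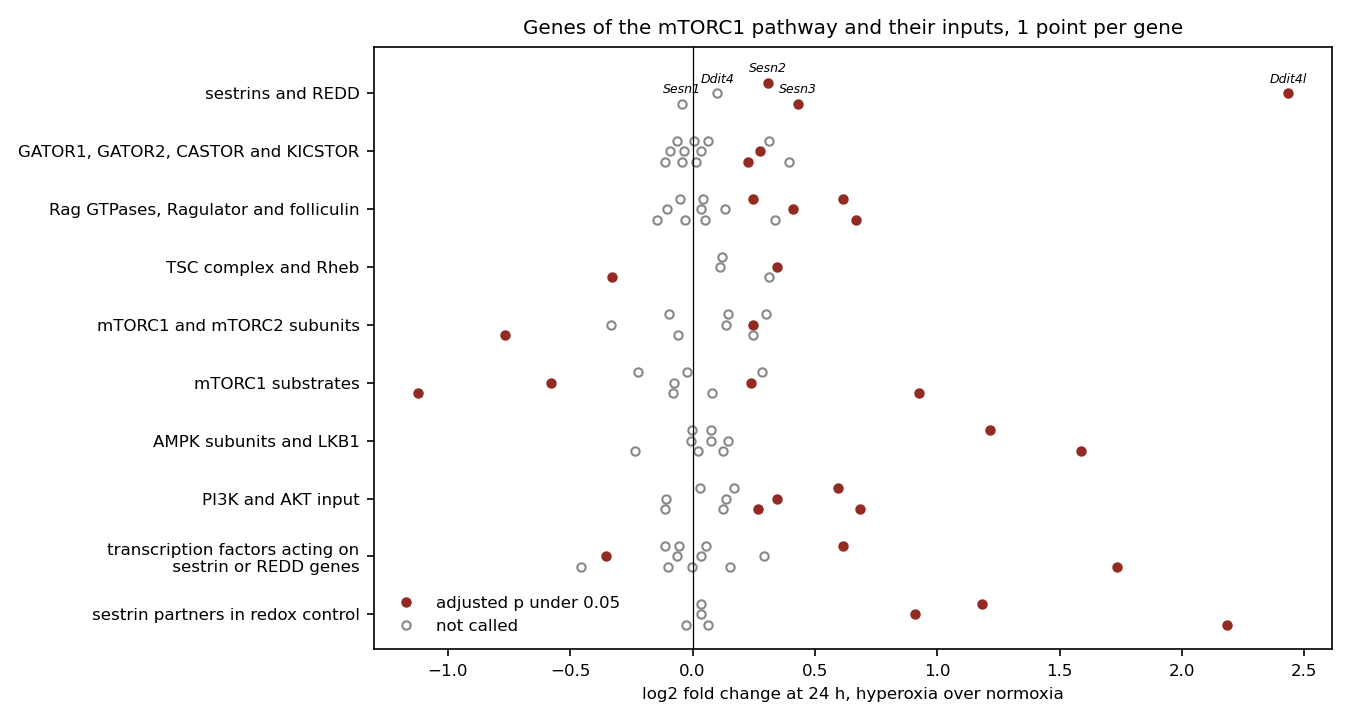
Log2 fold change of hyperoxia over normoxia at 24 h for the 5 genes (top row, named) and 90 genes of 9 pathway lists, 1 point per gene. Filled points have an adjusted p under 0.05. Ddit4l at 2.44 stands furthest right, and the 5 filled points left of 0 are Grb10, Prr5, Eif4ebp1, Atf4 and Rheb.

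GATOR2, the complex that sestrins bind, and its neighbours GATOR1, CASTOR and KICSTOR had 2 members higher and 0 lower of 13 at 24 h. That is 15.4% called, against 28.3% of all genes, the share to set beside each list below. These were Wdr24, a GATOR2 subunit, at 0.23 ± 0.07 and Nprl2, a GATOR1 subunit, at 0.27 ± 0.08 (SE here and below). Among Rag GTPases, Ragulator and folliculin, 4 of 13 were higher and 0 lower (30.8% called). Bmt2, a methionine-derivative sensor also called SAMTOR, rose by 0.67 ± 0.10 and Flcn, the folliculin that acts on the Rag GTPases, by 0.61 ± 0.09. Slc38a9, the lysosomal arginine sensor, rose by 0.41 ± 0.09, with 1 of its 3 probes not called, and Lamtor4 of Ragulator by 0.25 ± 0.08.

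The TSC complex and Rheb, on which REDD1 acts, had 1 gene higher and 1 lower of 5. This is 40% called, against 28.3% of all genes. Rheb itself fell by 0.33 on the log2 scale, with levels of 4.00 ± 0.07 in hyperoxia and 4.33 ± 0.08 in normoxia (SD, n = 4). Without scaling it stood at -0.13 and was not called (adjusted p = 0.469). Beside it, its relative Rhebl1 rose by 0.35 ± 0.10. Of 9 mTORC1 and mTORC2 subunits 1 was higher and 1 lower (22.2% called). Prr5, an mTORC2 subunit, fell by 0.77 and its relative Prr5l rose by 0.25 ± 0.09, close to the threshold at an adjusted p of 0.0481, while its other probes gave 0.46 (adjusted p = 0.00925) and 0.21 (adjusted p = 0.282). Mtor, the kinase itself, was at -0.058 by its brightest probe (adjusted p = 0.571) and at 1.07 by its other probe (adjusted p = 4.74e-07), so the 2 probes disagree. Of 10 mTORC1 substrates 2 were higher and 2 lower (40% called). Grb10, an adaptor that restrains insulin signalling, fell by 1.12, and Eif4ebp1, the translation repressor that mTORC1 inactivates, fell by 0.58. Lpin1, a phosphatidate phosphatase, rose by 0.93 ± 0.19 and Ulk1, the kinase that starts autophagy, by 0.24 ± 0.08. Rps6kb1, of the same list, was not called by its brightest probe. Its 3 tested probes gave -0.38 (adjusted p = 0.00670), 0.13 (adjusted p = 0.171) and -0.08 (adjusted p = 0.726), so they disagree.

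Sestrins are also tied to AMPK, the energy-sensing kinase. Of 10 AMPK subunit and LKB1 genes 2 were higher at 24 h and 0 lower (20% called, against 28.3% of all genes). Prkag3, a regulatory subunit, was -1.04 ± 0.16 in hyperoxia and -2.62 ± 0.20 in normoxia (SD, n = 4) and rose by 1.59 ± 0.12. Prkaa2, a catalytic subunit, rose by 1.22 ± 0.15, with normoxia levels lower at 24 h than at 6 h (-2.09 against -1.01). Prkag3 was 1 of the 2 pathway genes called at 6 h, at 0.85 ± 0.12. In the PI3K and AKT input 4 of 10 were higher and 0 lower (40% called). Insulin receptor substrates Irs1 and Irs2 rose by 0.60 and 0.27, and the PI3K regulatory subunit Pik3r1 by 0.34.

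Of 13 transcription factors known to act on sestrin or REDD genes 2 were higher and 1 lower at 24 h. The share called was 23.1%, against 28.3% of all genes. Foxo3, of the FOXO family that acts on Sesn3, was -0.88 ± 0.10 in hyperoxia and -2.61 ± 0.12 in normoxia (SD, n = 4) and rose by 1.73 ± 0.07, and at 6 h by 0.69 ± 0.07. Its other probe gave 0.56 at 24 h (adjusted p = 0.0391) and 0.02 at 6 h (adjusted p = 0.998), so its 2 probes disagree in size and, at 6 h, in the call. Foxo1 rose by 0.62 ± 0.11. Atf4, the amino acid stress factor, fell by 0.35, but stood at -0.15 without scaling and was not called (adjusted p = 0.279). Trp53, which encodes p53, was at -0.0030 (adjusted p = 0.994). Nfe2l2, which encodes NRF2, was at 0.15 (adjusted p = 0.398) and Hif1a at 0.29 (adjusted p = 0.0669). Epas1, of the same list, was at -0.065 by its brightest probe and not called. Its other probes gave 0.53 (adjusted p = 0.0185) and 0.77 (adjusted p = 0.00217), so the probes disagree. Of 7 genes in a list for redox control 3 were higher and 0 lower (42.9% called). Srxn1, the sulfiredoxin that recycles peroxiredoxins, rose by 1.18 ± 0.12 and Prdx1, a peroxiredoxin, by 0.91 ± 0.10. Txnip, the thioredoxin inhibitor, averaged 0.95 ± 0.58 in hyperoxia and -1.23 ± 0.07 in normoxia (SD, n = 4) and rose by 2.18 ± 0.21.

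For each of the 5 genes the 3 tested genes with the most similar levels were found by Pearson's r over the 16 arrays. These r values are descriptions, since the arrays fall into 4 groups and share slide and scaling, and the r of the deviations from the group means is given beside them. Ddit4l ran closest with Rnf169, a ubiquitin-binding protein of DNA damage sites (r = 0.994, within groups 0.76), Trp53inp1, a p53-induced nuclear protein (0.981, within groups 0.62), and Foxo3 (0.978, within groups -0.10). Rnf169 was 0.67 and 1.63 higher in hyperoxia at 6 h and 24 h, and Trp53inp1 0.80 and 2.22 higher. Sesn2 ran closest with Rnf41, a ubiquitin ligase (0.972, within groups 0.32), Scamp5, a membrane protein of secretory vesicles (0.966, within groups 0.58), and Vps33a, of endosome and lysosome tethering (0.966, within groups 0.59). For Sesn3 they were Echdc3 (0.934), Vps13b (0.916) and the Slit receptor Robo1 (0.915), with r of 0.88 to 0.90 within groups. For Sesn1 they were the prostacyclin synthase Ptgis (0.958), the retinaldehyde dehydrogenase Aldh1a2 (0.939) and the GABA transaminase Abat (0.937), with 0.86 to 0.91 within groups. For Ddit4 they were the homeobox gene Hoxb8 (0.906), Ier3ip1 (0.876) and Emd, which encodes emerin (0.869), with 0.80 to 0.90 within groups. None of the 6 genes named for Sesn1 and Ddit4 was called for hyperoxia at either time. All genes named here were picked by likeness over the same arrays, so their hyperoxia effects are not separate evidence.

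**Figure D4:**
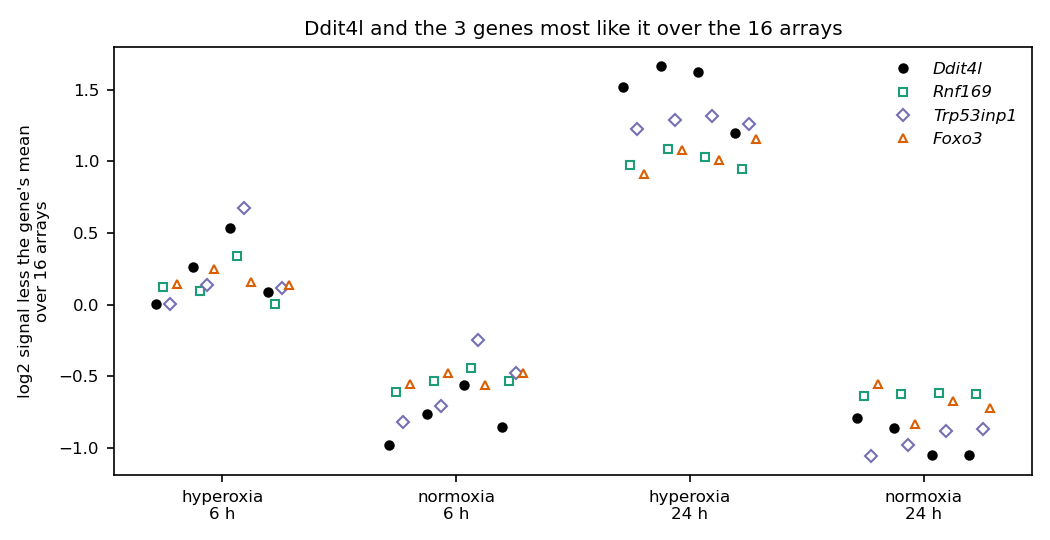
Log2 signal of Ddit4l, Rnf169, Trp53inp1 and Foxo3 less each gene's mean over the 16 arrays, by group, with 1 symbol per array. The 4 genes are highest in hyperoxia at 24 h, next in hyperoxia at 6 h and lowest in the normoxia groups, and Ddit4l has the widest span.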

How the data were processed

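The authors deposited a scanner file for each array. Per the file headers it was made with version 10.7.3.1 of Agilent Feature Extraction under protocol GE1_107_Sep09, and holds intensities: spot, local background and a processed signal from which background and a spatial trend on the array had been removed. The deposited files also mark spots as well above background, saturated or outlying. The series table that the authors deposited holds log2 values, each array with the same median of 7.19, and was used as an alternative. Its normalization is not given in the sources used here, and its values correlated with the log2 processed signals at 0.997 to 1.00.

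Control spots were left out, as were outlier spots where the probe had another spot not so marked, and spots of a probe were averaged (55681 probes). Log2 signals were shifted so that each array's 75th percentile was 0. The brightest probe stood for each gene, which was tested where well above background on 3 of 4 arrays of a group. Names were updated through RefSeq (GRCm38.p6) where accession or symbol matched. The comparisons used limma 3.58.1 in R 4.3.3 (1 mean per group over 16 arrays, 12 residual and 2.23 prior degrees of freedom) and Benjamini-Hochberg adjustment within each of 5 comparisons, checked on simulated data. The number of arrays limits the precision.

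All 5 members are named, as are up to 4 called genes of each pathway list with the largest hyperoxia effect, and the 3 genes most like each member. Values given for Mtor, Rps6kb1, Trp53, Nfe2l2, Hif1a and Epas1, and the markers, fall outside that rule. One gene that the rule takes is not reported here. Members and lists were chosen with earlier results of these data known. Same-numbered hyperoxia and normoxia arrays share a slide column, and at 24 h their deviations from group means correlated at 0.25, 0.34, 0.24 and 0.26, each over the 0.1 taken as the limit for pairing. The 6 h values were 0.25, 0.25, 0.35 and 0.086. Between times the same numbers correlated at 0.004 to 0.084. Alternatives were the background correction, the scaling, the filter, the series table, the replicate as a block, the 2 groups alone and leaving out each array.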

Additional observations from a re-analysis of the deposited data

Results flagged for a closer look

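The hyperoxia effect on Ddit4l differed between the times by the test of the difference itself: it was 1.42 log2 units larger at 24 h than at 6 h (limma adjusted p = 0.000157), and each of the 4 hyperoxia arrays was above each of the 4 normoxia arrays at both times. Leaving out single arrays gave 1.35 to 1.53, and the 8 other settings tried gave 1.40 to 1.68, with the adjusted p at most 0.000577. Among the 20 groups of 4 values (5 genes in 4 groups) none had an array that stood apart by Dixon's test.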

How the results depend on the processing

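The calls of Ddit4l at 6 h and 24 h and of Sesn2 at 24 h held under all 9 settings tried, the addition of no scaling after the data were seen included, and on leaving out each array (Ddit4l 0.91 to 1.09 and 2.38 to 2.54, Sesn2 0.28 to 0.33). For Ddit4l at 6 h the limma adjusted p under these settings ran from 0.00106 to 0.0451, the highest close to the threshold. With the replicate as a block over both times 79 genes were called at 6 h and 7480 at 24 h, and within each time 94 and 8470, and no call of the 5 genes changed. The causes of the changes that follow were not tested. Normexp turned Sesn1 at 6 h to 0.010 and its rise over time in hyperoxia to 0.19, which was not called. That call was also lost, at an unmoved 0.31, with no filter and with the 2 groups alone. Sesn3 at 24 h lost its call with median scaling (0.44) and no filter (0.43). Ddit4 over time in normoxia lost its call with quantile normalization (0.39), the series table (0.39) and the 2 groups alone (0.55). Median scaling turned Sesn3 and Ddit4l over time in normoxia to 0.051 and 0.061, and brought Sesn3 (0.45) and Ddit4 (0.59) in hyperoxia past the threshold. With the 2 groups alone 29 genes were called at 6 h, in place of 83.

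Without scaling 27 genes were called at 6 h, and Sesn3 turned to -0.021 at 6 h and Sesn1 to 0.16 at 24 h. Over time in normoxia it called 20128 genes in place of 11211, turned Sesn1, Sesn2 and Ddit4 to -0.26, -0.064 and -0.044 and brought Sesn3 (-0.75) and Ddit4l (-0.74) past the threshold. In hyperoxia it turned Sesn1 and Sesn3 to -0.024 and -0.10 and left Sesn2 at 0.22 (adjusted p = 0.0626). In the difference between times it turned Sesn1 and Ddit4 to 0.23 and 0.079 and called Sesn3 (0.65). It moved the median of all genes by 0.20 at 24 h and 0.26 in the difference. Normexp split the genes over time as 8516 higher and 3632 lower in normoxia and 7860 and 4568 in hyperoxia.

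Leaving out single arrays gave Sesn3 0.39 to 0.52 at 24 h, -0.11 to 0.15 at 6 h, 0.12 to 0.38 over time in hyperoxia and 0.28 to 0.54 in the difference. Sesn1 ranged from -0.10 to 0.040 at 6 h, -0.15 to 0.042 at 24 h, 0.25 to 0.40 over time in normoxia (call lost 3 times), 0.20 to 0.40 in hyperoxia (lost 5 times) and -0.14 to 0.062 in the difference, and Sesn2 from -0.011 to 0.063 in the difference. Ddit4 ranged from -0.10 to 0.22 at 24 h and from 0.44 to 0.76 over time in normoxia, where the call held only without normoxia 24 h replicate 3 or normoxia 6 h replicate 2. Genes called at 6 h numbered 44 to 193: 54 and 44 without normoxia replicates 1 and 4, and 193 and 55 without hyperoxia replicates 3 and 4. In the difference they numbered 2480 to 4969 in place of 3113, with 4969 without hyperoxia 6 h replicate 3. Other probes of the 5 genes could not be tried, since each has 1. The 2 groups alone give no difference between times, and the block within each time gives no comparison of times.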

Other observations

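The spread between replicates differed among the 5 genes. The residual SD over the 4 groups was 0.07 log2 units for Sesn2, lower than for all but 4.02% of the tested genes, against 0.30 for Ddit4, at the 77.3rd percentile. Sesn1 (0.17), Ddit4l (0.19) and Sesn3 (0.22) lay between them, at the 48.7th, 57.4th and 63.7th percentiles. Within groups, the deviations of the 5 genes from their group means correlated pairwise at -0.59 (Sesn1 with Sesn3) to 0.38 (Sesn1 with Sesn2) over the 16 arrays, as a description with the scaling shared.

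Of the 90 other pathway genes, some passed the test over time in culture, where time and slide cannot be told apart and the split depends on the scaling. At 24 h against 6 h, 43 were higher and 7 lower in hyperoxia, which is 55.6% against 52.3% of all genes, and 34 were higher and 9 lower in normoxia, which is 47.8% against 44.1%. Flcn, which acts on the Rag GTPases, had log2 levels of 3.34 ± 0.21 in hyperoxia and 2.72 ± 0.03 in normoxia at 24 h, and 1.76 ± 0.11 in hyperoxia and 1.69 ± 0.04 in normoxia at 6 h (SD, n = 4).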
